A study of Mus musculus with 6 samples.

Results

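The secreted modulators of Wnt signalling described here were 10 genes picked by symbol from the gene lists of 6 single-nucleus RNA-seq libraries of mouse tibial periosteum. They were the Wnt-binding antagonists Sfrp1, Sfrp2, Sfrp4, Sfrp5, Frzb and Wif1, the Dickkopf genes Dkk2 and Dkk3, and the R-spondins Rspo2 and Rspo3. All 10 were present among the 30406 genes that every library listed. They were picked by symbol without a threshold on a measured value, but earlier results of these data were known at that time. All nuclei came from 12-week-old C57BL6 mice, males and females together. The uninjured group had 2 libraries of periosteum scraped from the tibias of 4 mice, so that each library was a pool of animals. The fractured groups had periosteum and hematoma collected 3 days (2 libraries), 5 days (1 library) and 7 days (1 library) after an open, non-stabilized tibial fracture, and per the methods of the study each of these time points used injured tibias pooled from 4 to 9 mice.

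Wnt ligands bind Frizzled receptors and LRP5 or LRP6 co-receptors, and in the canonical branch this stabilises beta-catenin and turns on target genes. Secreted frizzled-related proteins (Sfrp genes and Frzb) and Wif1 bind Wnt ligands outside the cell, Dkk2 binds the LRP co-receptors, and Dkk3 is a divergent Dickkopf family member without a settled role in the pathway. R-spondins work the other way, since they bind LGR receptors and the ligases Rnf43 and Znrf3 and so keep Wnt receptors at the cell surface. In bone, canonical Wnt signalling is known to favour osteoblasts over chondrocytes and to be active in fracture repair.

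The 6 libraries held 13551 nuclear barcodes and 55293921 UMIs (counted RNA molecules), with 1499281 to 29796296 UMIs per library. After the quality limits of the study and the removal of 1892 myogenic nuclei, 6181 nuclei were clustered and 13 populations were named from markers, with 275 nuclei in 2 clusters left unnamed. Because the names were rebuilt here, they carry the ending -like. They included skeletal stem/progenitor cells (SSPCs; their marker Pi16 was at 601 CPM, the UMIs of a gene scaled to the total UMIs of the nuclei, in SSPC-like nuclei and 22.3 in fibroblast-like nuclei) and injury-induced fibrogenic cells (IIFCs). The SSPC-like cluster scored highest for the fibroblast markers. It took its name as runner-up, because SSPC markers led its top genes, by a rule set after seeing the clusters. Stromal nuclei means chondrocyte-like, osteoblast-like, SSPC-like, IIFC-like and fibroblast-like nuclei together, of which the libraries held 90 and 363 (uninjured), 113 and 245 (day 3), 1009 (day 5) and 681 (day 7). Uninjured replicate 1 and the day 5 and day 7 libraries were processed with Cell Ranger 6.0.0 and the other 3 with 7.1.0. Each barcode sequence is drawn from a shared pool, and 18 sequences occurred in a pair of libraries, 1 of them among the nuclei kept.

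The modulators differed in the population where each was highest, and several shared one. Sfrp1 and Sfrp2 were highest in fibroblast-like nuclei, Sfrp4 and Dkk2 in SSPC-like nuclei, Dkk3 and Rspo2 in tendon-like nuclei, Frzb in chondrocyte-like nuclei, Wif1 in osteoblast-like nuclei, and Sfrp5 and Rspo3 in nerve sheath fibroblast-like nuclei. These levels are means over the libraries with at least 20 nuclei of a population, and since the populations came from clustering the same nuclei they are a description with no test. The libraries averaged differ between populations, and the highest population was not the same in every library. For example, Frzb at day 5 was at 110 CPM in osteoblast-like and 81.0 CPM in chondrocyte-like nuclei. All genes of the Wnt lists were kept out of the features used for clustering.

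**Figure D1:**
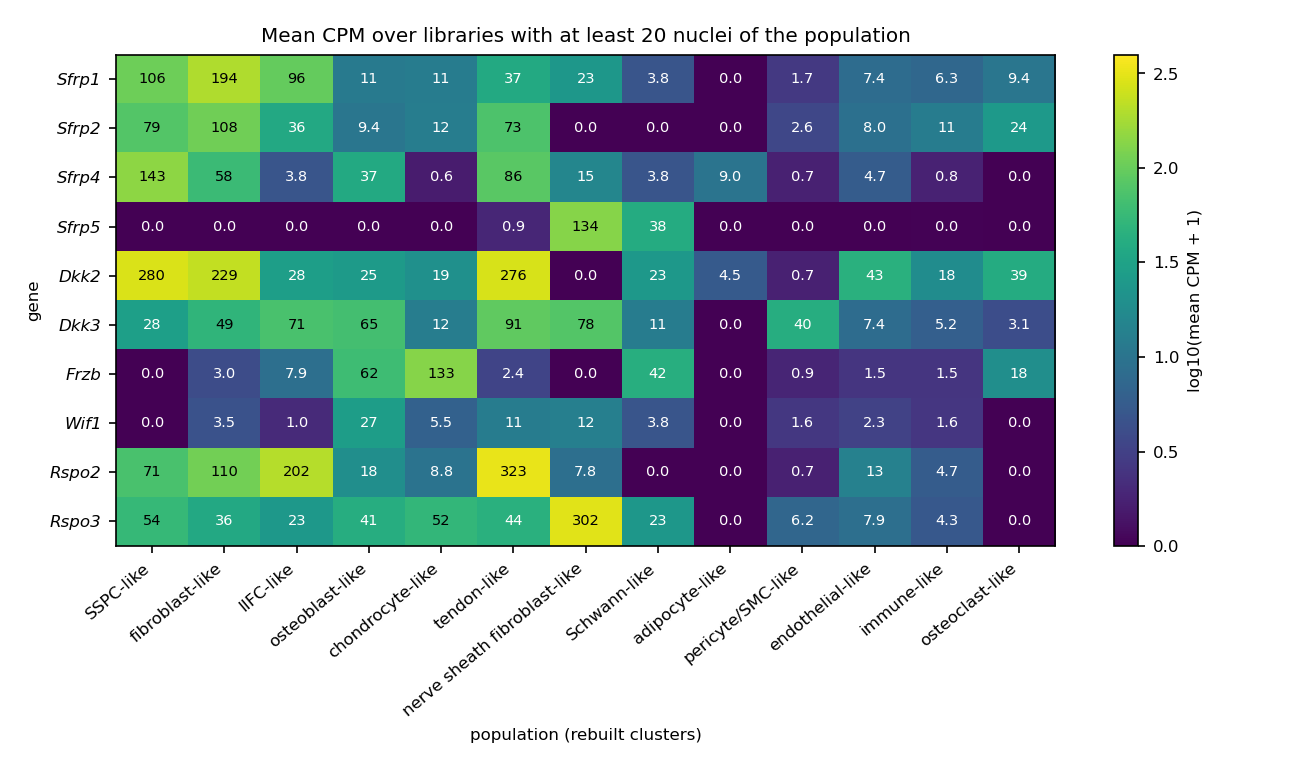
Heat map of the mean CPM of the 10 genes (rows) in 13 named populations (columns), over libraries with at least 20 nuclei of the population, with colour as log10(mean CPM + 1) and the mean CPM printed in each cell. Sfrp5 reads 134 in nerve sheath fibroblast-like nuclei and 38 in Schwann-like nuclei and at most 0.9 elsewhere, whereas Dkk2 is above 200 in SSPC-like, fibroblast-like and tendon-like nuclei.

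At day 3 after fracture the stromal antagonists changed in opposite directions. Sfrp1 rose and Sfrp4 and Dkk2 fell in stromal nuclei, and within SSPC-like and fibroblast-like nuclei alone Sfrp2 also rose. In the stromal comparison 3 of the 10 genes passed an adjusted p of 0.05 in the quasi-likelihood test of edgeR, adjusted by Benjamini-Hochberg over all 9415 genes tested, 1 higher and 2 lower, where 8.24% of all tested genes passed (3.21% higher and 5.03% lower). Dkk3, Rspo2 and Rspo3 were tested and did not pass, and Sfrp5, Frzb and Wif1 had too few UMIs to be tested. The median log2 fold change was −0.13 over the 7 tested members and 0.00615 over all tested genes. The comparison rested on 2 libraries against 2, its p-values measure the spread between these pooled libraries, and days 5 and 7, with 1 library each, were not tested. A fit without 1 of these libraries leaves a single library in its group, which is assumed to vary like the other group, so such fits are given below for their values and a pass in them says nothing about stability.

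**Figure D2:**
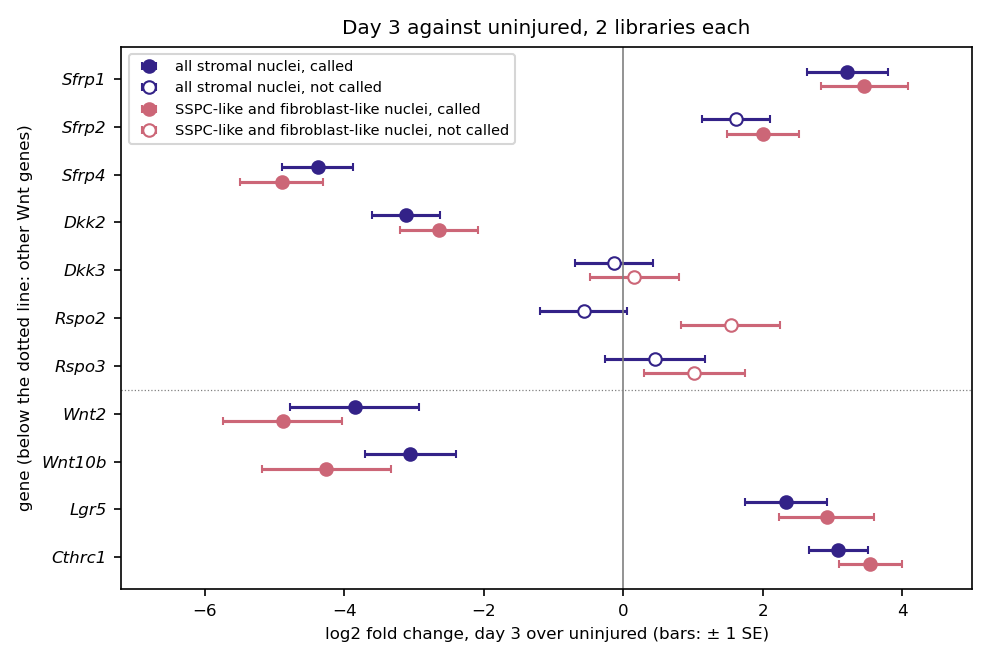
Log2 fold change of day 3 over uninjured (x axis, bars 1 SE, 2 libraries per group) for the 7 tested members and, below the dotted line, the 4 other Wnt genes that passed in stromal nuclei. Filled points passed an adjusted p of 0.05; Sfrp4 lies at −4.39 in stromal nuclei and −4.90 in SSPC-like and fibroblast-like nuclei, Sfrp1 at 3.21 and 3.45.

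The makeup of the stromal nuclei differed between the groups, so each change was also computed in SSPC-like and fibroblast-like nuclei only. SSPC-like nuclei gave 47.8% and 43.4% of stromal UMIs in the uninjured libraries and 13.9% and 14.8% at day 3, while IIFC-like nuclei gave 6.62% and 1.71% against 48.1% and 34.0%. Fibroblast-like nuclei gave 38.5% and 38.6% against 31.85% and 41.6%. The mix of SSPC-like and fibroblast-like nuclei thus also differed between the groups, and its part in the narrower results was not tested. In that narrower comparison 4 of the 10 genes passed, 2 higher and 2 lower, where 7.32% of the 7859 tested genes passed (3.05% higher and 4.26% lower). RNA of other cell types in stromal nuclei also moved with the groups. The summed level of the 6 immune markers was 7.37 and 19.9 CPM in uninjured stroma, with Mrc1, Csf1r, Adgre1, Itgam and Csf3r at 0 in replicate 1 and Adgre1 and Csf3r at 0 in replicate 2, and it was 202 and 449 CPM at day 3. The 6 myogenic markers summed to 612 and 934 CPM against 284 and 344, the 5 endothelial markers to 133 and 63.6 CPM against 7.96 and 28.1, and their part in the results below was not tested. As a background level for free RNA, immune-like nuclei themselves held each member in at most 1.31% of nuclei once every nucleus was thinned to 500 UMIs (Sfrp2, the highest).

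Sfrp1, an antagonist that binds Wnt ligands, was nearly silent in the uninjured stroma and present in every fractured library. Stromal nuclei held 0 CPM in uninjured replicate 1, where 0 UMIs allow up to 22.1 CPM, and 21.5 CPM in uninjured replicate 2. At day 3 they held 119 and 218 CPM, followed by 143 CPM at day 5 and 74.1 CPM at day 7 (95% Poisson interval 61.2 to 89.1, counting error only, as for all such intervals below). Both day 3 libraries lay above both uninjured ones, and the level was highest in day 3 replicate 2. Sfrp1 rose by 3.21 ± 0.58 on the log2 scale (SE, edgeR quasi-likelihood test, adjusted p = 0.00809). In SSPC-like and fibroblast-like nuclei the values were 0 and 25.2 CPM uninjured and 133 and 326 CPM at day 3, a rise of 3.45 ± 0.63 (SE, edgeR adjusted p = 0.00928). The fitted stromal value was 2.87 when uninjured replicate 1 was left out, which leaves only libraries of Cell Ranger 7.1.0. Without uninjured replicate 2 the fitted value was 10.07 against a library with no Sfrp1 UMI at all, which gives no bound on the change.

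Over all libraries, fibroblast-like nuclei held 792 of the 1327 stromal Sfrp1 UMIs. Their level was 0 and 27.8 CPM in the uninjured libraries, 158 and 395 CPM at day 3, 364 CPM at day 5 and 218 CPM at day 7. The fractured libraries thus all lay above the uninjured ones in this population, and the mean over 6 libraries was 194 ± 165 CPM (SD). IIFC-like nuclei held 121 and 96.0 CPM at day 3, 112 CPM at day 5 and 53.8 CPM at day 7. In day 3 replicate 1 they held more Sfrp1 UMIs than fibroblast-like nuclei (22 against 19). After thinning to 500 UMIs, 9.48% of fibroblast-like nuclei had an Sfrp1 UMI (58 of 612, exact binomial interval 7.28% to 12.1%), against 0.956% of immune-like and 0.317% of myogenic nuclei (median depth before thinning 2991, 1954 and 3137 UMIs). Without thinning, 63 of 94 fibroblast-like nuclei of day 3 replicate 2 and 127 of 209 of day 5 held at least 1 UMI, so the signal was spread over many nuclei.

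Sfrp2, a close relative of Sfrp1, was highest in the same library at a lower level. Its stromal values were 14.7 and 39.1 CPM uninjured, 66.3 and 144 CPM at day 3, 65.8 CPM at day 5 and 16.3 CPM at day 7. The uninjured and day 3 values did not overlap, and the day 7 value lay between the uninjured ones. Immune-like nuclei held Sfrp2 at 0 (22 nuclei) and 26.2 CPM (7 UMIs) uninjured and at 0 and 23.5 CPM at day 3. The stromal difference of 1.61 ± 0.49 (log2, SE) did not pass (edgeR adjusted p = 0.0725). In SSPC-like and fibroblast-like nuclei, where the libraries held 17.1 and 45.8 CPM uninjured and 92.8 and 221 CPM at day 3, Sfrp2 rose by 2.00 ± 0.52 (SE, edgeR adjusted p = 0.0412). The fitted value in these nuclei was 3.19 without uninjured replicate 2 and 1.47 without day 3 replicate 2, and the stromal difference was 1.99 without day 3 replicate 1. The antisense gene Gm26771 overlaps Sfrp2, and whether the counts separated them was not tested.

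Some nuclei held both Sfrp1 and Sfrp2. In fibroblast-like nuclei of day 3 replicate 2, 63 of 94 nuclei had Sfrp1, 52 had Sfrp2 and 40 had both. In uninjured replicate 2, 8 of 110 such nuclei had Sfrp1, 8 had Sfrp2 and 1 had both. Nuclei with many UMIs hold more of both genes, and whether the genes occur together more often than their separate shares give was not tested.

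**Figure D3:**
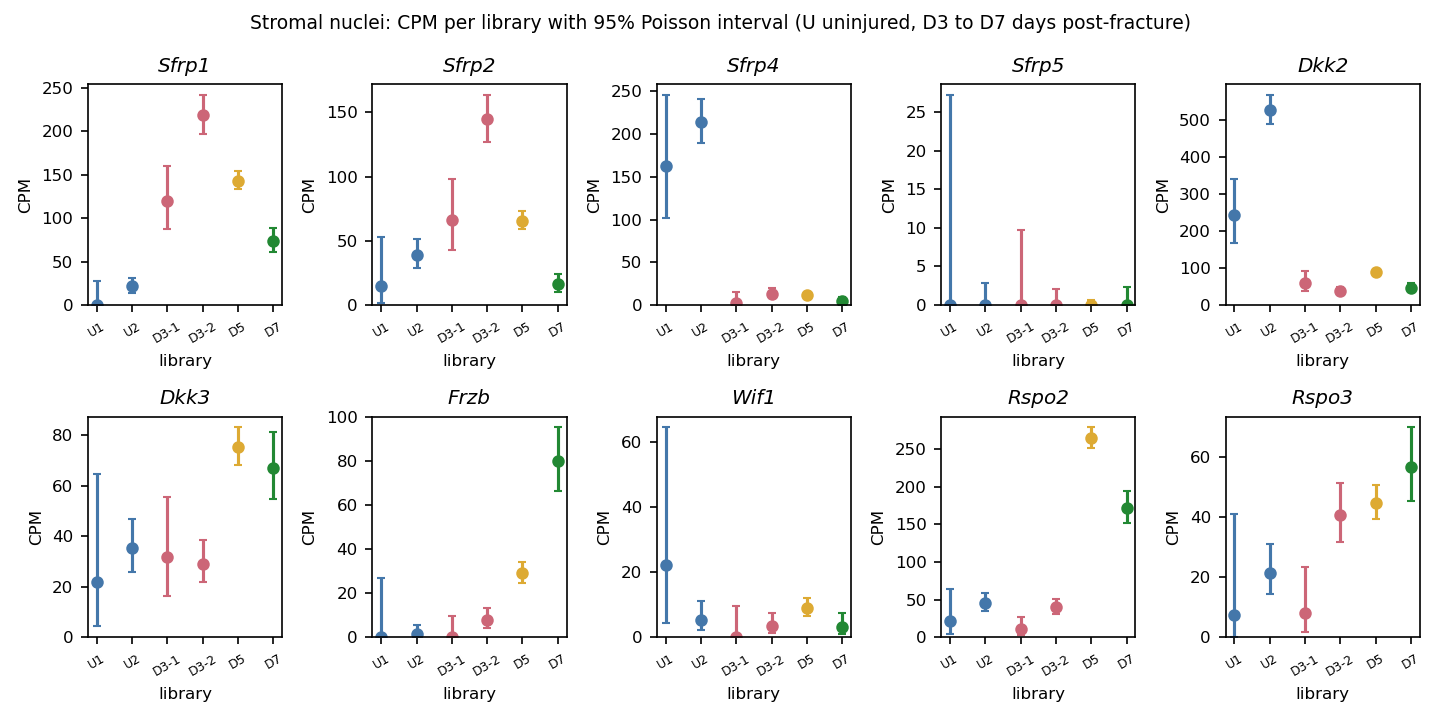
CPM of each member in all stromal nuclei of each library (x axis: U1 and U2 uninjured, D3-1 and D3-2 day 3, D5, D7), with 95% Poisson intervals that cover counting error only. Sfrp4 and Dkk2 are high in both uninjured libraries (162 and 214 CPM, 243 and 526 CPM) and low in all fractured ones, Sfrp1 shows the opposite order, and Rspo2 and Frzb are highest at day 5 or day 7.

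Sfrp4, which antagonises Wnt ligands and is known for its role in cortical bone, was a gene of the uninjured periosteum. Stromal nuclei held 162 and 214 CPM in the uninjured libraries, 2.65 and 13.2 CPM at day 3, 11.7 CPM at day 5 and 4.55 CPM at day 7. In these sums every fractured library was under 14 CPM and both uninjured ones were far above. Osteoblast-like nuclei differed from this pattern, with 73.2 CPM (15 UMIs) in uninjured replicate 2 and 68.0 CPM in day 3 replicate 2, where they held 9 of the 23 stromal UMIs. Sfrp4 fell by 4.39 ± 0.51 on the log2 scale (SE, edgeR adjusted p = 0.00114), and by 4.90 ± 0.60 (SE, edgeR adjusted p = 0.00121) in SSPC-like and fibroblast-like nuclei, from 188 and 247 CPM to 0 and 10.2 CPM. Without day 3 replicate 2 the stromal fit gave −5.90, and without day 3 replicate 1 it gave −4.00.

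The low Sfrp4 level did not extend to SSPC-like nuclei at days 5 and 7. SSPC-like nuclei held 216 and 318 CPM uninjured, 0 (17 nuclei) and 3.87 CPM (36 nuclei) at day 3, 105 CPM at day 5 (interval 72.6 to 148) and 74.9 CPM at day 7 (interval 30.1 to 154). The day 5 value thus lay above the intervals of both day 3 libraries, which end at 70.5 and 21.6 CPM, and below the intervals of both uninjured ones. Fibroblast-like nuclei showed no such level, with 153 and 167 CPM uninjured, 0 and 12.4 CPM at day 3, 14.4 CPM at day 5 and 0 CPM at day 7 (0 UMIs allow up to 9.78 CPM). SSPC-like nuclei gave only 5.90% and 6.08% of stromal UMIs at days 5 and 7, so the stromal sums hardly carry their Sfrp4. Whether the SSPC-like nuclei of day 3 are SSPCs was not tested, so their low level is not read as a change within SSPCs. In uninjured tendon-like nuclei of replicate 2 Sfrp4 was at 359 CPM, against 34.8 and 17.1 CPM at day 3.

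Sfrp5, an antagonist best known from fat and heart, was not detectable in the stroma at this depth. All 6 libraries had 0 stromal UMIs, which allows from 0.566 CPM (day 5) to 22.1 CPM (uninjured replicate 1). Its UMIs lay in nerve sheath fibroblast-like nuclei, with 20.8 CPM (2 UMIs in 38 nuclei) in uninjured replicate 1, 354 CPM (74 UMIs in 37 nuclei) in uninjured replicate 2 and 26.1 CPM (2 UMIs in 23 nuclei) at day 5. These libraries of one tissue differed widely, and the mean of 134 ± 191 CPM (SD, n = 3 libraries) rests on uninjured replicate 2. Day 3 and day 7 had at most 6 such nuclei per library, too few to read a level. Schwann-like nuclei came next with 23.7 and 53.1 CPM in the uninjured libraries.

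Frzb, an antagonist known from cartilage, was found mainly in chondrocyte-like and osteoblast-like nuclei of the later libraries. Stromal nuclei held 0 and 1.53 CPM uninjured, 0 and 8.02 CPM at day 3, 29.2 CPM at day 5 (interval 24.8 to 34.2) and 80.0 CPM at day 7 (interval 66.5 to 95.4). The uninjured and day 3 values overlapped and the gene had too few UMIs for a test, and 10 of the 14 UMIs of day 3 replicate 2 came from 1 nucleus. Chondrocyte-like nuclei held 81.0 CPM at day 5 (157 nuclei) and 186 CPM at day 7 (239 nuclei), and osteoblast-like nuclei 110 CPM at day 5 and 53.3 CPM at day 7. In uninjured replicate 2, 135 osteoblast-like nuclei had no Frzb UMI (0 CPM, interval up to 18.0). Schwann-like nuclei of that library held 83.5 CPM (11 UMIs in 6 of 31 nuclei), and those of uninjured replicate 1 held 0 (24 nuclei). Chondrocyte-like nuclei gave 16.8% of stromal UMIs at day 5 and 36.4% at day 7 and at most 1.95% in the 4 earlier libraries, so that the stromal level of Frzb and the share of these nuclei move together.

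Wif1, which binds Wnt ligands directly, was scarce in the stroma of every library. The stromal values were 22.1 CPM (3 UMIs) and 5.37 CPM uninjured, 0 and 3.44 CPM at day 3, 9.05 CPM at day 5 and 3.25 CPM at day 7. Over all libraries osteoblast-like nuclei held 46 of the 69 stromal UMIs, 36 of them at day 5 (58.0 CPM). They held 29.3 CPM in uninjured replicate 2, where all 6 UMIs came from 1 of 135 nuclei. Day 3 replicate 2 (7.55 CPM) and day 7 (13.3 CPM) had 1 UMI each in these nuclei. In those 2 libraries chondrocyte-like nuclei held more, with 5 of 6 and 3 of 5 stromal UMIs. The interval of each of these osteoblast-like values overlaps that of the day 5 value (40.7 to 80.4), and no test was made.

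Dkk2, an antagonist that acts through the LRP co-receptors, was the most abundant member of the uninjured stroma in UMIs. Counts come from the 3' end of transcripts and are not scaled by gene length, so this order of genes is a statement about UMIs. Stromal nuclei held 243 and 526 CPM uninjured, 61.0 and 38.4 CPM at day 3, 88.1 CPM at day 5 and 46.8 CPM at day 7. The lower uninjured library lay above every fractured one. Dkk2 fell by 3.12 ± 0.49 on the log2 scale (SE, edgeR adjusted p = 0.00428), and by 2.64 ± 0.55 (SE, edgeR adjusted p = 0.0172) in SSPC-like and fibroblast-like nuclei, from 282 and 637 CPM to 122 and 51.8 CPM. Without uninjured replicate 2 the stromal value was −2.34, and the value in SSPC-like and fibroblast-like nuclei was −1.84. Without uninjured replicate 1 the stromal value was −3.53.

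Dkk2 was shared by 3 populations in the uninjured tissue. In uninjured replicate 2, SSPC-like nuclei held 623 CPM, fibroblast-like nuclei 652 CPM and tendon-like nuclei 996 CPM (interval 869 to 1137). At day 3 the same populations held 115 and 124 CPM, 125 and 26.2 CPM, and 104 and 4.26 CPM. Tendon-like nuclei were thus the highest of the 3 in uninjured replicate 2 and the lowest in day 3 replicate 2, and uninjured replicate 1 had only 5 of them. The means over libraries were 280 ± 214 CPM (SD, n = 5) in SSPC-like, 276 CPM in tendon-like and 229 CPM in fibroblast-like nuclei. They mix time points, so this SD includes the change after fracture, and their order was not tested. Within day 3 replicate 2 the intervals of SSPC-like (84.7 to 175) and fibroblast-like nuclei (15.8 to 40.9) did not overlap. Immune-like nuclei of that library held 24.2 CPM (interval 19.7 to 29.5), so the fibroblast-like value was not above their level. Few nuclei carried Dkk2, with 75 of 363 stromal nuclei of uninjured replicate 2 holding all 686 UMIs. Among SSPC-like nuclei of that library 45 of 105 had Sfrp4, 40 had Dkk2 and 25 had both.

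**Figure D4:**
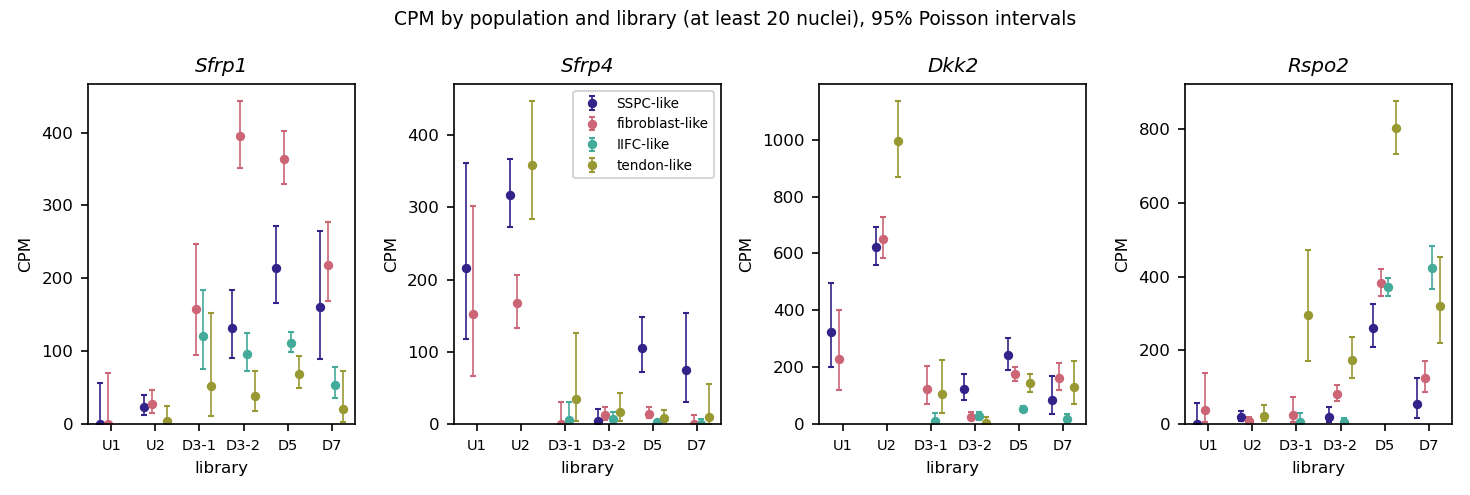
CPM of Sfrp1, Sfrp4, Dkk2 and Rspo2 (one panel each) in SSPC-like, fibroblast-like, IIFC-like and tendon-like nuclei of each library with at least 20 of them, with 95% Poisson intervals. Sfrp4 in SSPC-like nuclei reads 318 CPM in uninjured replicate 2, 3.87 CPM in day 3 replicate 2 and 105 CPM at day 5, and Rspo2 in IIFC-like nuclei 6.74 CPM in day 3 replicate 2 and 372 CPM at day 5.

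The sequences before the start of 3 members are shown to set side by side a gene that fell (Dkk2), a gene with no stromal UMI (Sfrp5) and a gene that rose in SSPC-like and fibroblast-like nuclei (Sfrp2). Each line gives the 250 bases upstream of the RefSeq start on the gene's own strand, build GRCm38.p6, at chr3:132085042-132085291 (+ strand) for Dkk2, chr19:42202253-42202502 (− strand) for Sfrp5 and chr3:83766071-83766320 (+ strand) for Sfrp2, and capitals mark the letters TATAAA:
Dkk2: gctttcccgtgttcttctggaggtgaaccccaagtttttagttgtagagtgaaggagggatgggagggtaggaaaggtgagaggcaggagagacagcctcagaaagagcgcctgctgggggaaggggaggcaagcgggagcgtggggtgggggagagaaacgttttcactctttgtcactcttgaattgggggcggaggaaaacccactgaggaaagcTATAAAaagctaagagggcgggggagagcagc
Sfrp5: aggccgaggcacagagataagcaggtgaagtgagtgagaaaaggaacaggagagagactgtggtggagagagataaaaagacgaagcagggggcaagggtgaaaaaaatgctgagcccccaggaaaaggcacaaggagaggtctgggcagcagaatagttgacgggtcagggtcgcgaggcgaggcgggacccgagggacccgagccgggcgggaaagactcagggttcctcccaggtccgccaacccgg
Sfrp2: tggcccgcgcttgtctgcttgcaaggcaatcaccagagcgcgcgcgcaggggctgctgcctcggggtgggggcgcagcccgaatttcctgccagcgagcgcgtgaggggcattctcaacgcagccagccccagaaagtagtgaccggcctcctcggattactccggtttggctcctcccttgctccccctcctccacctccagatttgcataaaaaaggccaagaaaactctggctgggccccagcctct
The windows hold 55.6%, 59.6% and 63.6% G and C. On both strands, 3 motifs were searched. The letters TATAAA are in 12.4% of the 32851 mouse promoter windows of the same length, and the Dkk2 window holds them once. The letters CTTTGA are in 13.8% of all windows and the letters CACGTG in 6.02%, and the windows shown hold neither, so no match overlaps another. The reference held a promoter for 5 of the 10 members. Of the 2 windows not shown, Frzb has CTTTGA once and Wif1 has TATAAA and CACGTG once each.

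In GENCODE coordinates of GRCm38, Sfrp1 spans chr8:23411502-23449632 (+ strand), Sfrp4 chr13:19623104-19632994 (+), Dkk2 chr3:132085292-132180304 (+), Sfrp2 chr3:83766321-83774316 (+), Sfrp5 chr19:42197971-42202252 (−) and Dkk3 chr7:112116017-112159057 (−). Frzb spans chr2:80411970-80447625 (−), Wif1 chr10:121033960-121100650 (+), Rspo2 chr15:43020794-43170826 (−) and Rspo3 chr10:29452416-29535867 (−). Introns were counted together with exons, so a UMI of these genes may come from unspliced RNA. Rspo3 overlaps the antisense gene Gm48159 and the gene Gm20276.

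In endothelial-like nuclei Dkk2 was the only member with enough UMIs for a test, and its difference did not pass. These nuclei held 16.6 and 22.5 CPM uninjured, 0 and 69.0 CPM at day 3, 113 CPM at day 5 and 39.9 CPM at day 7. The day 3 libraries lay on both sides of the uninjured ones, and 31 of the 34 UMIs of day 3 replicate 2 came from 1 nucleus, without which that library held 6.27 CPM. The log2 difference was 1.10 ± 0.76 (SE, edgeR adjusted p = 0.533), in a comparison where 3.85% of 6814 genes passed (1.79% higher and 2.05% lower). A fit with both cell groups gave a Dkk2 effect 4.49 ± 0.70 higher in endothelial-like than in stromal nuclei (log2, SE, edgeR adjusted p = 5.71e-04, 3.78% of 8648 genes called), and it was the only one of the 7 members tested there that passed. That difference was 1.93 and did not pass (edgeR adjusted p = 0.569) when the nucleus with most UMIs of each gene and library was left out. Without day 3 replicate 2 the fitted value was −3.82. Day 3 replicate 1 then stands alone with 0 Dkk2 UMIs in endothelial-like nuclei, so this value gives no bound on the difference.

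Dkk3, unlike Dkk2, was near the same level in the uninjured and day 3 stroma. Its stromal values were 22.1 and 35.3 CPM uninjured, 31.8 and 29.2 CPM at day 3, 75.4 CPM at day 5 and 67.0 CPM at day 7. The uninjured and day 3 values overlapped, and the log2 difference of −0.13 ± 0.56 (SE, edgeR adjusted p = 0.939) took either sign depending on the library left out. The day 5 interval (68.2 to 83.2) lay above the intervals of all 4 earlier libraries, at 1 library and without a test. Dkk3 was spread over several populations, with means of 90.7 ± 61.5 CPM (SD, n = 5) in tendon-like, 78.4 in nerve sheath fibroblast-like, 70.9 in IIFC-like, 64.9 in osteoblast-like, 49.3 in fibroblast-like and 40.3 in pericyte/SMC-like nuclei. These means mix time points, so the spread between libraries includes any change over time, and their order was not tested.

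Rspo2, which amplifies Wnt signals at the receptor and is needed for limb skeletal development, was low at day 3 and high at days 5 and 7. Stromal nuclei held 22.1 and 45.2 CPM uninjured, 10.6 and 40.1 CPM at day 3, 265 CPM at day 5 (interval 251 to 279) and 172 CPM at day 7 (interval 152 to 194). The uninjured and day 3 values overlapped (log2 difference −0.57 ± 0.62, SE, edgeR adjusted p = 0.69), and the later libraries were well above all 4. In the day 7 library only 24.5% of the Rspo2 UMIs were in nuclei kept, which held 121 CPM over all populations, against 512 CPM in barcodes that failed the ribosomal limit only. In uninjured replicate 2, 42 of the 59 UMIs came from 1 IIFC-like nucleus, and the library held 13.2 CPM without it. The day 3 difference was 0.032 when the nucleus with most Rspo2 in each library was left out. In SSPC-like and fibroblast-like nuclei the values were 17.1 and 14.0 CPM uninjured and 17.4 and 65.0 CPM at day 3 (1.54 ± 0.71, SE, edgeR adjusted p = 0.288).

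In IIFC-like nuclei Rspo2 was near 0 at day 3 and among the highest levels later. They held 5.51 CPM (1 UMI) and 6.74 CPM (4 UMIs) at day 3, 372 CPM at day 5 (interval 348 to 398) and 422 CPM at day 7 (interval 367 to 483). Most day 3 IIFC-like nuclei belonged to cluster 15 and most later ones to cluster 0, and within cluster 0 the values were 8.08 CPM in day 3 replicate 2 (31 nuclei, 2 UMIs), 371 CPM at day 5 and 431 CPM at day 7. Fibroblast-like nuclei held 38.3 and 7.95 CPM uninjured, 24.98 and 81.2 CPM at day 3, 382 CPM at day 5 and 124 CPM at day 7. Tendon-like nuclei were the exception to the low day 3 level, with 22.7 CPM in uninjured replicate 2, 296 and 175 CPM at day 3, 802 CPM at day 5 and 320 CPM at day 7. In tendon-like nuclei all fractured libraries lay above the only uninjured one with enough nuclei. Chondrocyte-like nuclei, from the same callus, held only 3.37 CPM at day 5 and 14.3 CPM at day 7.

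Rspo3, the second R-spondin and known from vessels and bone, was spread thinly over the stroma. Its stromal values were 7.37 and 21.5 CPM uninjured, 7.96 and 40.7 CPM at day 3, 44.7 CPM at day 5 and 56.6 CPM at day 7. The groups overlapped, and the log2 difference of 0.45 ± 0.71 (SE) did not pass (edgeR adjusted p = 0.797), nor did the 1.01 ± 0.72 (SE, edgeR adjusted p = 0.547) in SSPC-like and fibroblast-like nuclei. Nerve sheath fibroblast-like nuclei stood apart with 645 CPM in uninjured replicate 1, 182 CPM in uninjured replicate 2 and 78.2 CPM at day 5, and these 3 intervals did not overlap except for the last 2 (129 to 250 and 28.7 to 170). The signal came from 13 of 38, 10 of 37 and 4 of 23 nuclei. Endothelial-like nuclei held 0 to 23.7 CPM over the 6 libraries. When tendon-like and nerve sheath fibroblast-like nuclei were added to the stroma the day 3 difference was −2.56 (edgeR adjusted p = 0.101). The uninjured libraries hold 38 and 37 nerve sheath fibroblast-like nuclei and the day 3 libraries 4 and 6.

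The rest of the pathway was read from a list of 69 other Wnt genes, of which 35 had enough stromal UMIs for a test and 4 passed, 2 in each direction. That is 11.4% of those tested, near the 8.24% of all genes tested, so the count is not a result about the list. Of the 5 tested Wnt ligands 2 fell and the others did not pass. Wnt2, a canonical ligand, was at 95.8 and 50.6 CPM uninjured and 13.3 and 1.72 CPM at day 3, and fell by 3.85 ± 0.93 (log2, SE, edgeR adjusted p = 0.0291). Wnt10b, a canonical ligand known to promote bone formation, went from 36.8 and 46.8 CPM to 2.65 and 6.88 CPM and fell by 3.05 ± 0.65 (SE, edgeR adjusted p = 0.0178). With 1 library left out, the fitted value ranged from −5.32 to −2.13 for Wnt2 and from −3.77 to −2.79 for Wnt10b.

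The 2 genes that rose were Lgr5 and Cthrc1. Lgr5, a receptor of R-spondins and itself a Wnt target, was at 7.37 and 16.9 CPM uninjured and 45.1 and 113 CPM at day 3. It rose by 2.33 ± 0.59 (log2, SE, edgeR adjusted p = 0.0339). With 1 library left out, its fitted value ranged from 1.79 to 3.38. Cthrc1, a secreted glycoprotein linked to non-canonical Wnt signalling, was at 14.7 and 26.1 CPM against 164 and 258 CPM and rose by 3.08 ± 0.43 (SE, edgeR adjusted p = 0.00243). The 11 tested Wnt receptors had log2 differences between −1.40 (Fzd1) and 0.99 (Ryk), with a median of −0.24. Axin2, the usual readout of canonical signalling, had 29.5 and 12.3 CPM uninjured and 2.65 and 9.74 CPM at day 3 (log2 difference −1.25, not passed). The same 4 genes passed in SSPC-like and fibroblast-like nuclei. The median log2 fold change over the 35 genes was −0.19.

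The genes whose pattern was most like each member were sought over 51 sums of population and library with at least 20 nuclei, among 10848 genes that reached 50 CPM in at least 1 sum. The measure was Pearson's r of log2(CPM + 10), and it is a description, since sums of one library share its depth and sums of one population share its cells. Sfrp1 was most like Angptl1, which encodes a secreted angiopoietin-like protein (r = 0.846), and Sfrp2 was most like Ccbe1 (0.802) and next to it Timp1 (0.787) and Sfrp1 (0.778). Sfrp4 was nearest to Myoc, which encodes the secreted protein myocilin (0.811), and Dkk2 to Lmx1b, a limb patterning transcription factor (0.688). Frzb was nearest to the R-spondin receptor gene Lgr6 (0.867) and to Panx3, a channel gene of skeletal cells (0.845). Rspo2 was nearest to the fibrillin gene Fbn2 (0.802), Rspo3 to Spats2l (0.78), Sfrp5 to Sbspon (0.818), Dkk3 to Antxr1 (0.8) and Wif1 to Syt9 (0.68). Among the members, Sfrp4 and Dkk2 had r = 0.613 and Sfrp1 and Rspo2 r = 0.624.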

How the data were processed

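Nuclei were sorted by a DNA stain and profiled with 10x Chromium 3' v3.1 chemistry. The authors deposited UMI counts per gene and nucleus, made with Cell Ranger 6.0.0 or 7.1.0 (per the submitters' processing notes, mm10) with intronic reads included. The labels' protocol names a human reference, but the files list mouse genes, 31055 to 32287 per library, of which 30406 common ones were used. The raw counts were filtered after the study (200 to 5000 genes, under 2% mitochondrial and 1.5% ribosomal UMIs), leaving 8073 nuclei. Scrublet marked 138 nuclei as doublets (0 to 4.04% per library), which were kept. Libraries were integrated and clustered with Seurat 5.3.0 (2000 features, 20 components, resolution 1.3, marker and Wnt genes left out). A minimum score of 1 and a rule on runner-up names were set after seeing the clusters. Nuclei expressing muscle genes were removed.

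Counts were summed per library and population. Day 3 was compared with uninjured by edgeR 4.0.16 (R 4.3.3; filterByExpr, TMM, quasi-likelihood test, Benjamini-Hochberg over all genes tested, 0.05), with DESeq2 1.42.0 as an alternative, and tested on simulated data. The difference between cell groups used the same counts with a term per library. Levels are CPM with exact Poisson intervals, shares of nuclei have exact Clopper-Pearson intervals at 95% after thinning to 500 UMIs, and the limit for a count of 0 is 3 counts. Intervals cover counting error only. Replicates were pools of mice; nothing in the sources used here says whether they came from separate experiments. Python 3.11.15, scanpy 1.11.5, scipy 1.17.1, numpy 2.4.6 and pandas 2.3.3 were used.

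Named genes were the 10 members, the other Wnt genes that passed in the stromal comparison (at most 12) and for each member the 3 genes most alike, of which 1 to 3 are printed. Axin2, Fzd1 and Ryk were added after their values were seen. Members and lists were chosen with earlier results of these data known. Alternatives covered the tool, size factors, low-count filter, libraries left out, integration, resolution, features, nucleus filters, doublets and the nuclei summed. Groups came from sample titles, and replicate numbers follow accession order.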

Additional observations from a re-analysis of the deposited data

Results flagged for a closer look

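The day 3 effect on Dkk2 differed between cell groups by 4.49 on the log2 scale, higher in endothelial-like than in stromal nuclei, in a test of the difference itself (edgeR adjusted p = 5.71e-04). In day 3 replicate 2, 31 of 34 endothelial-like UMIs came from 1 nucleus. Without that library the fitted value was −3.82, against a day 3 library with 0 such UMIs, which gives no bound. In uninjured endothelial-like nuclei Dkk2 lay largely in cluster 16, led by Gja5, Sema3g and Bmx, genes known from arteries, with 89.4 CPM (3 of 40 nuclei) and 67.4 CPM (7 of 55 nuclei), and day 3 libraries had only 4 and 5 nuclei of that cluster.

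In the day 7 library some members were higher in removed than in kept barcodes. Among its 1012 barcodes that failed the ribosomal limit only, Rspo3 was at 836 CPM, Wif1 at 53.2 CPM and Rspo2 at 512 CPM, against 39.5, 2.66 and 121 CPM in kept nuclei. Of that library's UMIs, 5.94% of those of Rspo3 and 24.5% of those of Rspo2 were in kept nuclei. Ribosomal genes, on which that limit acts, led the removed barcodes of this library. Ttr, ranked 8, was at 2668 CPM in them against 1.90 CPM in kept nuclei. The cell type of these barcodes was not tested, so their levels are not read as levels of the callus.

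The transgenes EGFP and tdTomato, listed in 4 of the gene tables, had 43 UMIs together in uninjured replicate 1 and none in uninjured replicate 2, day 3 replicate 2 and day 5, although all mice are labelled C57BL6.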

How the results depend on the processing

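No paired analysis was made, because the libraries are pools of mice and the sources name no pairs between the groups. The labels give no replicate numbers, and the numbers used here follow accession order. In stromal nuclei the calls of Sfrp1, Sfrp4 and Dkk2 held under every alternative run with all 4 libraries except that Dkk2 was −2.21 (adjusted p = 0.116) over all nuclei. Leaving out 1 library at a time leaves a group of 1, assumed to vary like the other group, and so says nothing about the stability of a call. It gave 3 to 4 members called, 322 to 1105 genes called in all, and ranges of 2.87 to 10.07 for Sfrp1, 1.21 to 2.80 for Sfrp2, −5.90 to −4.00 for Sfrp4 and −3.53 to −2.34 for Dkk2. In SSPC-like and fibroblast-like nuclei it gave 2 to 4 members and 161 to 781 genes, and DESeq2 called 375 genes. In endothelial-like nuclei it gave 0 members and 29 to 480 genes, with 714 genes without a filter on low counts and 456 without the upper limit on genes (added after seeing the data). Sfrp2 in SSPC-like and fibroblast-like nuclei did not pass with DESeq2 (2.09, adjusted p = 0.101), without integration (1.45, adjusted p = 0.104) or with a 5% mitochondrial and no ribosomal limit (1.97, adjusted p = 0.0695).

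Signs changed only for genes that did not pass and for the Dkk2 difference. Stromal Dkk3 was 0.021 with DESeq2 and −0.32 to 0.43 with a library left out, and −0.029 to 0.46 in SSPC-like and fibroblast-like nuclei. Stromal Rspo2 was 0.59 without integration, 0.68 over all nuclei, 0.71 with tendon-like and nerve sheath fibroblast-like nuclei added, 0.032 without the top nucleus (added after seeing the data) and −1.64 to 0.25 with a library left out. Stromal Rspo3 was −2.40 over all nuclei and −2.56 with those nuclei added. The Dkk2 difference ranged from −3.82, fitted against a day 3 library with no endothelial-like Dkk2 UMI, to 5.10. DESeq2 shifted the stromal median of all genes to −0.13. Of 330 fold changes under alternatives 291 kept their sign and side of the threshold; the causes of the other changes were not tested. The population with the highest level stayed the same for 7 to 9 of the 10 genes, with Dkk2 at 513 CPM without integration. Shares of nuclei rose with depth, for example from 9.48% to 18.2% (1000 UMIs) and 39.7% (no thinning) for Sfrp1 in fibroblast-like nuclei.

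Depth limits the lowest values: uninjured replicate 1 had 135710 stromal UMIs, so that 0 UMIs there allow up to 22.1 CPM. In day 3 replicate 2, 48.0% of Rspo3, 50.1% of Rspo2, 43.4% of Sfrp1, 42.0% of Dkk3, 34.5% of Sfrp2 and 32.5% of Dkk2 UMIs were in nuclei removed by the upper limit on genes only. Sfrp1 was at 121 CPM there and 49.3 CPM in kept nuclei, which held 20.3% of its UMIs.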
